A study of Rattus norvegicus with 4 samples.

Results

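Primary rat astrocytes that had received IFN-γ together with GW for 3 h were compared with untreated astrocytes, both after transfection with control siRNA, on 1 expression array each. Astrocytes are the supporting glia of the brain, and IFN-γ is the cytokine of activated T and natural killer cells. Probes with 1 gene symbol were used, with 1 probe per gene, the one with the highest mean over the 4 arrays of the series. Of 18166 such genes, 11790 were compared, those whose highest value was at or above 5.83, the median over the whole deposited table. Each difference is the log2 value with IFN-γ and GW minus the log2 value of untreated cells, so that 1 is 2-fold.

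The cells came from the cerebral cortex of Sprague-Dawley rats aged 1 day, and serum-free medium had been used to deplete microglia and meningeal cells. The 4 arrays hold control siRNA cells left untreated, control siRNA cells with IFN-γ, control siRNA cells with IFN-γ and GW, and SHP siRNA cells with IFN-γ and GW. All cells were thus transfected, and GW is named here only as the labels name it. Cells with GW but no IFN-γ, and SHP siRNA cells without GW, were not analysed here, so an effect of GW alone cannot be told apart from one that needs IFN-γ. With 1 array per condition there is no spread between replicates, and no difference given here has an error or a p-value. A difference between conditions cannot be told apart from one between single cultures or arrays.

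IFN-γ acts through its receptor and the JAK kinases, and the promoters of its target genes are known for gamma-activated sites and interferon-stimulated response elements. IRF1, a factor that IFN-γ raises in many cell types, acts on the latter. Immediate early genes are a separate set: their promoters carry serum response and cyclic AMP response elements, and MAP kinase, calcium and cyclic AMP signals switch them on within minutes without new protein. NF-κB drives inflammatory cytokines and its own inhibitors, and HSF1 drives chaperones through heat shock elements.

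The promoters below are those of genes described further on, chosen to show one element of each kind. They are RefSeq sequences of rat assembly GRCr8 from 250 bases before to 50 bases after the transcription start, written 5′ to 3′ on the strand of the gene, with matches to the 6 motifs named here in capitals. The capitals mark the cyclic AMP response element TGACGTCA in Dusp1, at chr10:17184603-17184902 on the plus strand. In Il6, at chr4:5894526-5894825 on the minus strand, they mark the same element and, nearer to the start, an NF-κB site. In Zfp36, at chr1:92799059-92799358 on the minus strand, they mark a CArG box, the core of a serum response element, and, past the start, a gamma-activated site. In Cxcl1, at chr14:17479272-17479571, and Cxcl2, at chr14:17467206-17467505, both on the minus strand, they mark an NF-κB site that matches on both strands in overlapping positions and is counted once. In Irf1, at chr10:38417685-38417984 on the plus strand, they mark a gamma-activated site, TTCNNNGAA, and an NF-κB site. In Hsph1, at chr12:10427118-10427417 on the plus strand, they mark a heat shock element, GAANNTTCNNGAA. In Gbp5, at chr2:233910749-233911048 on the plus strand, they mark the core of an interferon-stimulated response element, GAAANNGAAA, and 3 NF-κB sites. In Igtp, at chr10:42874797-42875096 on the plus strand, they mark that same core and a gamma-activated site.
Dusp1: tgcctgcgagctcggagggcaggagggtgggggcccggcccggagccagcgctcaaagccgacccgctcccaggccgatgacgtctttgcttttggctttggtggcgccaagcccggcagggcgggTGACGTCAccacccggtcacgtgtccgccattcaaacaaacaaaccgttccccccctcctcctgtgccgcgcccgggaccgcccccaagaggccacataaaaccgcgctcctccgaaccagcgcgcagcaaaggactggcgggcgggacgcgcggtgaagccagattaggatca
Zfp36: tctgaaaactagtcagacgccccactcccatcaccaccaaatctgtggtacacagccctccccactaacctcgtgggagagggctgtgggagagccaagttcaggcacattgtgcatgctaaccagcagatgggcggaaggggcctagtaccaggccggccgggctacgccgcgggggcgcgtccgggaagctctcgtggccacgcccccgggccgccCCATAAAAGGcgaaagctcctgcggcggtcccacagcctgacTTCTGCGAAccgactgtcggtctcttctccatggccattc
Il6: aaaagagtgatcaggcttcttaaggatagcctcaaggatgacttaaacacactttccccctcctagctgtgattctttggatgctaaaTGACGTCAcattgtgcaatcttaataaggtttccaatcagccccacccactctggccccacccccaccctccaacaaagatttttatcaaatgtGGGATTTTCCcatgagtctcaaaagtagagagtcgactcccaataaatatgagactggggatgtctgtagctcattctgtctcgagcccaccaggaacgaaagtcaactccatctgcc
Cxcl1: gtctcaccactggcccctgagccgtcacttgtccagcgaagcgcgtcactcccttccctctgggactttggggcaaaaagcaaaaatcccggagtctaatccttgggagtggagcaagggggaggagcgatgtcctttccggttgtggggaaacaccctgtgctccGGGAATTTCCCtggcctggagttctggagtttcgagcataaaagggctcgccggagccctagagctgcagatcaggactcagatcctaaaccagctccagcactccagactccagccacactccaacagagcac
Cxcl2: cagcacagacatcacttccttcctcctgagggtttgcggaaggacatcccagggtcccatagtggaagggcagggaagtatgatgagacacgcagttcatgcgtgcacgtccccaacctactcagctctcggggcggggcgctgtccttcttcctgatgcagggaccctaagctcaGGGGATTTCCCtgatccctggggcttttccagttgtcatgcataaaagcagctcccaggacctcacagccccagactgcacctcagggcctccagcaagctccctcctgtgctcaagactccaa
Irf1: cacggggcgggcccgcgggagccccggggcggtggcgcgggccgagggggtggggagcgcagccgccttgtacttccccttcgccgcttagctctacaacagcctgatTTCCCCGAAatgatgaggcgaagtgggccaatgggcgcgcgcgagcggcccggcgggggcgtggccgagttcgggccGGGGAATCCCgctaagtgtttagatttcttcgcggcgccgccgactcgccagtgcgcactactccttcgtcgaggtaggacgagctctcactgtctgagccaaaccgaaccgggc
Hsph1: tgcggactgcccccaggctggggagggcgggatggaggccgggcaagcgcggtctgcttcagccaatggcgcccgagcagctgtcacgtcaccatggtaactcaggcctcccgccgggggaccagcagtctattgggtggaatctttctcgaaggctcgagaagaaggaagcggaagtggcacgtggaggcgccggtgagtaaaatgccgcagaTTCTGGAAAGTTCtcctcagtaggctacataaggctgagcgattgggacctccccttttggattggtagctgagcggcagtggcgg
Gbp5: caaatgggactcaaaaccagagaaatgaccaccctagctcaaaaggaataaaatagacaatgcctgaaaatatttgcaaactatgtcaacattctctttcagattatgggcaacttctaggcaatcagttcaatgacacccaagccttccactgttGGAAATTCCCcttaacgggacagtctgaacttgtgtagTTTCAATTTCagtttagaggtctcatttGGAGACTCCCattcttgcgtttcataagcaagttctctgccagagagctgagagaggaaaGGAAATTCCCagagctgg
Igtp: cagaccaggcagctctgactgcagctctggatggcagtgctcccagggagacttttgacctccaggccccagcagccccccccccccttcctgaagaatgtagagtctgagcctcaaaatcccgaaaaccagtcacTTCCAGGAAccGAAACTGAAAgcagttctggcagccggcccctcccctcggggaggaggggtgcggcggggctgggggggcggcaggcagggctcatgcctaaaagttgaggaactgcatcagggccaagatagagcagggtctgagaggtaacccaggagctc

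A match is a description of letters in this window and not of binding. Both strands were searched. Among the 9707 of the 11790 genes with a promoter in the RefSeq table, the cyclic AMP response element was found in 3.10%, the CArG box in 1.35%, the NF-κB site in 4.97%, the gamma-activated site in 6.60%, the interferon element in 3.08% and the heat shock element in 0.474%.

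With IFN-γ and GW, 194 genes stood 2-fold or more above untreated cells, 1.65% of those compared, and 99 were at least 2-fold lower, 0.84%. The higher genes went much further than the lower ones: 74 reached 4-fold and 27 reached 8-fold higher, whereas 4 reached 3-fold lower. After each array was centred on its own median the split was 222 higher and 64 lower, so the higher share moved from 66.2% to 77.6%. The median difference of all genes was -0.08 on the log2 scale and the middle 95% lay between -0.78 and 0.76. Of the 11790 genes 4679 were above 0 and 7108 below, which is the background for the list counts that follow. The genes just past 2-fold were Atxn7, Pfkfb3, Mt1 and Id3 at 2.009, 2.011, 2.017 and 2.024-fold higher. Just short of it, Klf5, Zfp503 and Lats2 were 1.999, 1.980 and 1.978-fold higher. On the lower side Psph, Tlr7 and Ccdc28a were just past at 2.002, 2.004 and 2.012-fold, and Pla2g4a, Ms4a6c and Hpse just short at 1.999, 1.996 and 1.991-fold.

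**Figure D1:**
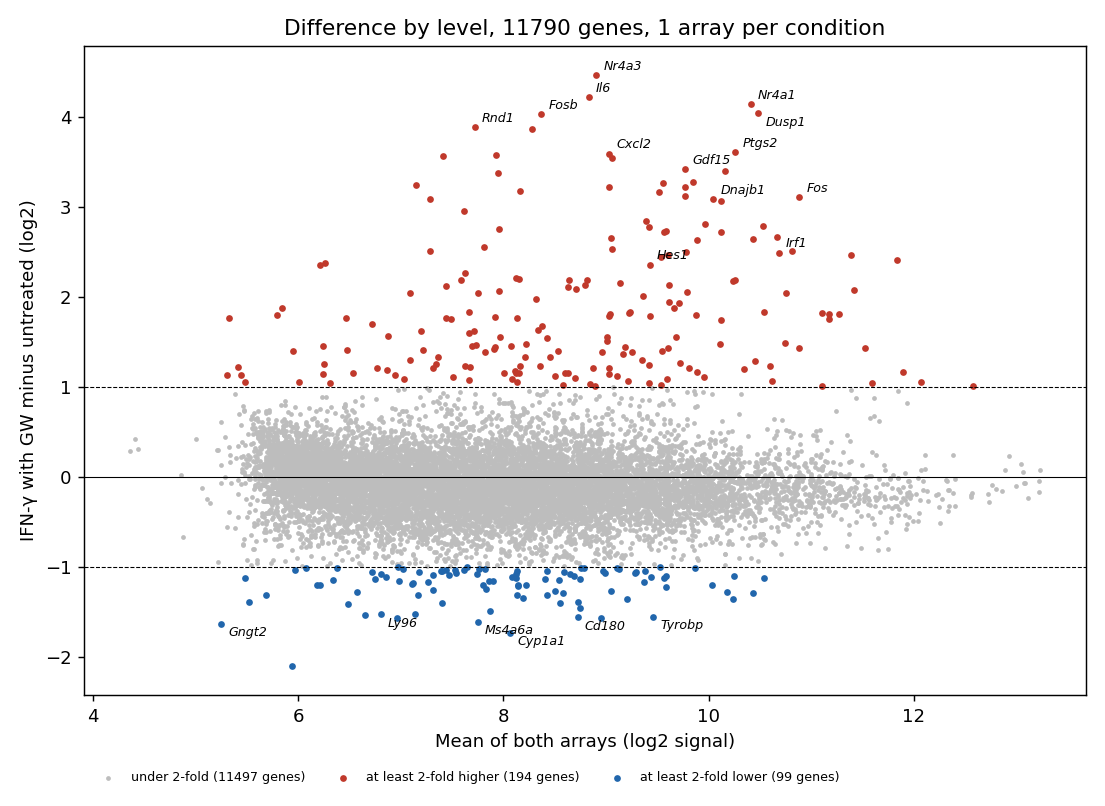
Each point is 1 of 11790 genes, with the mean log2 signal of the untreated array and the IFN-γ with GW array on the horizontal axis and their log2 difference on the vertical axis, and dashed lines mark 2-fold. The 194 higher genes in red reach 4.47, while the 99 lower genes in blue reach -2.10.

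Of the 194 higher genes, 120 belonged to one or more of the 36 gene lists described here, as did 35 of the 99 lower genes. The lists were drawn with earlier results of these data known. The share of all compared genes in any list was not counted, so these counts only describe the lists. The other arrays, set beside this one below, share the untreated array: IFN-γ alone had 190 genes 2-fold or more above untreated (1.61%) and 34 lower (0.288%), and SHP siRNA with IFN-γ and GW had 188 higher (1.59%) and 104 lower (0.882%).

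Immediate early genes were prominent among the highest genes. Their list, labelled immediate early factors in the figures, holds transcription factors and also other early genes such as Arc, Ccn1, Sik1 and Zfp36. Of 45 such genes compared, 32 reached 2-fold higher, none was as much lower, and 44 were above 0, around a median difference of 1.84. In the same list 12 genes reached 2-fold higher with IFN-γ alone, around a median of 0.43, and 26 did with SHP siRNA, IFN-γ and GW, with a median of 1.20. On the IFN-γ with GW array 36 of the 45 had their highest of the 4 values, beside 21.6% of all genes.

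Nr4a3, an orphan nuclear receptor of the NR4A family, had the greatest difference of any gene. It read 6.67 on the untreated array, 8.14 with IFN-γ, 11.14 with IFN-γ and GW and 9.62 with SHP siRNA, IFN-γ and GW, which makes it 22.1-fold higher with IFN-γ and GW than untreated. Its relative Nr4a1 read 8.34 on the untreated array, 9.63 with IFN-γ, 12.48 with IFN-γ and GW and 11.75 with SHP siRNA, IFN-γ and GW, a net difference of 17.7-fold. Nr4a2, the third member, read 8.59 on the untreated array, 8.94 with IFN-γ, 11.66 with IFN-γ and GW and 9.79 with SHP siRNA, IFN-γ and GW, or 8.36-fold higher. In all 3 receptors the order of the arrays was the same, with untreated lowest, then IFN-γ, then SHP siRNA with IFN-γ and GW, then IFN-γ with GW.

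The Fos and Jun proteins pair to form the AP-1 factor. Fos read 9.33 on the untreated array, 9.47 with IFN-γ, 12.44 with IFN-γ and GW and 11.83 with SHP siRNA, IFN-γ and GW, and was 8.66-fold higher. Fosb read 6.35 on the untreated array, 6.58 with IFN-γ, 10.39 with IFN-γ and GW and 9.00 with SHP siRNA, IFN-γ and GW, a difference of 16.4-fold. For both, the IFN-γ array lay close to the untreated one and both arrays with GW lay far above. Fosl1 and Junb were instead already higher with IFN-γ alone, by 1.69 and 1.94, and reached net differences of 2.78 and 2.84. Jun, read by 2 probes, was 2.67 higher on the brighter one and 2.71 on the other. Atf3, a stress-induced partner of Jun, was 8.74-fold higher, and Batf, a lymphoid AP-1 member, was the one gene of the list below 0, at -0.34.

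The EGR zinc finger factors were higher as a family. Egr1 read 10.15 untreated, 11.18 with IFN-γ, 12.62 with IFN-γ and GW and 12.27 with SHP siRNA, a net 5.53-fold. Egr2 read 7.29 untreated, 8.73 with IFN-γ, 10.84 with IFN-γ and GW and 9.63 with SHP siRNA, a net 11.7-fold. Egr4 read 5.63 untreated, 6.07 with IFN-γ, 9.20 with IFN-γ and GW and 7.33 with SHP siRNA, a net 11.9-fold, and Egr3 was 5.70-fold higher. All 4 values of Egr1, Egr2 and Egr4 ran in the order seen for the NR4A receptors. Egr4 and Arc, a neuronal activity gene at 3.09, lay below the table median of 5.83 in untreated cells, where the array may no longer follow abundance, so their folds may understate the change.

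Other early genes of the list ranged widely. Csrnp1, a nuclear factor, was 14.7-fold higher and Ccn1, a secreted matrix protein, 10.6-fold. Sik1, a kinase that restrains cyclic AMP response genes, was 9.36-fold higher. Zfp36, whose protein binds AU-rich elements and hastens decay of cytokine messages, read 10.63 on the untreated array, 12.07 with IFN-γ, 13.04 with IFN-γ and GW and 12.94 with SHP siRNA, IFN-γ and GW, which is 5.31-fold. Its promoter, printed above, holds the CArG box and a gamma-activated site. Myc was 3.58-fold and Srf, the factor that binds the CArG box, 2.18-fold higher.

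**Figure D2:**
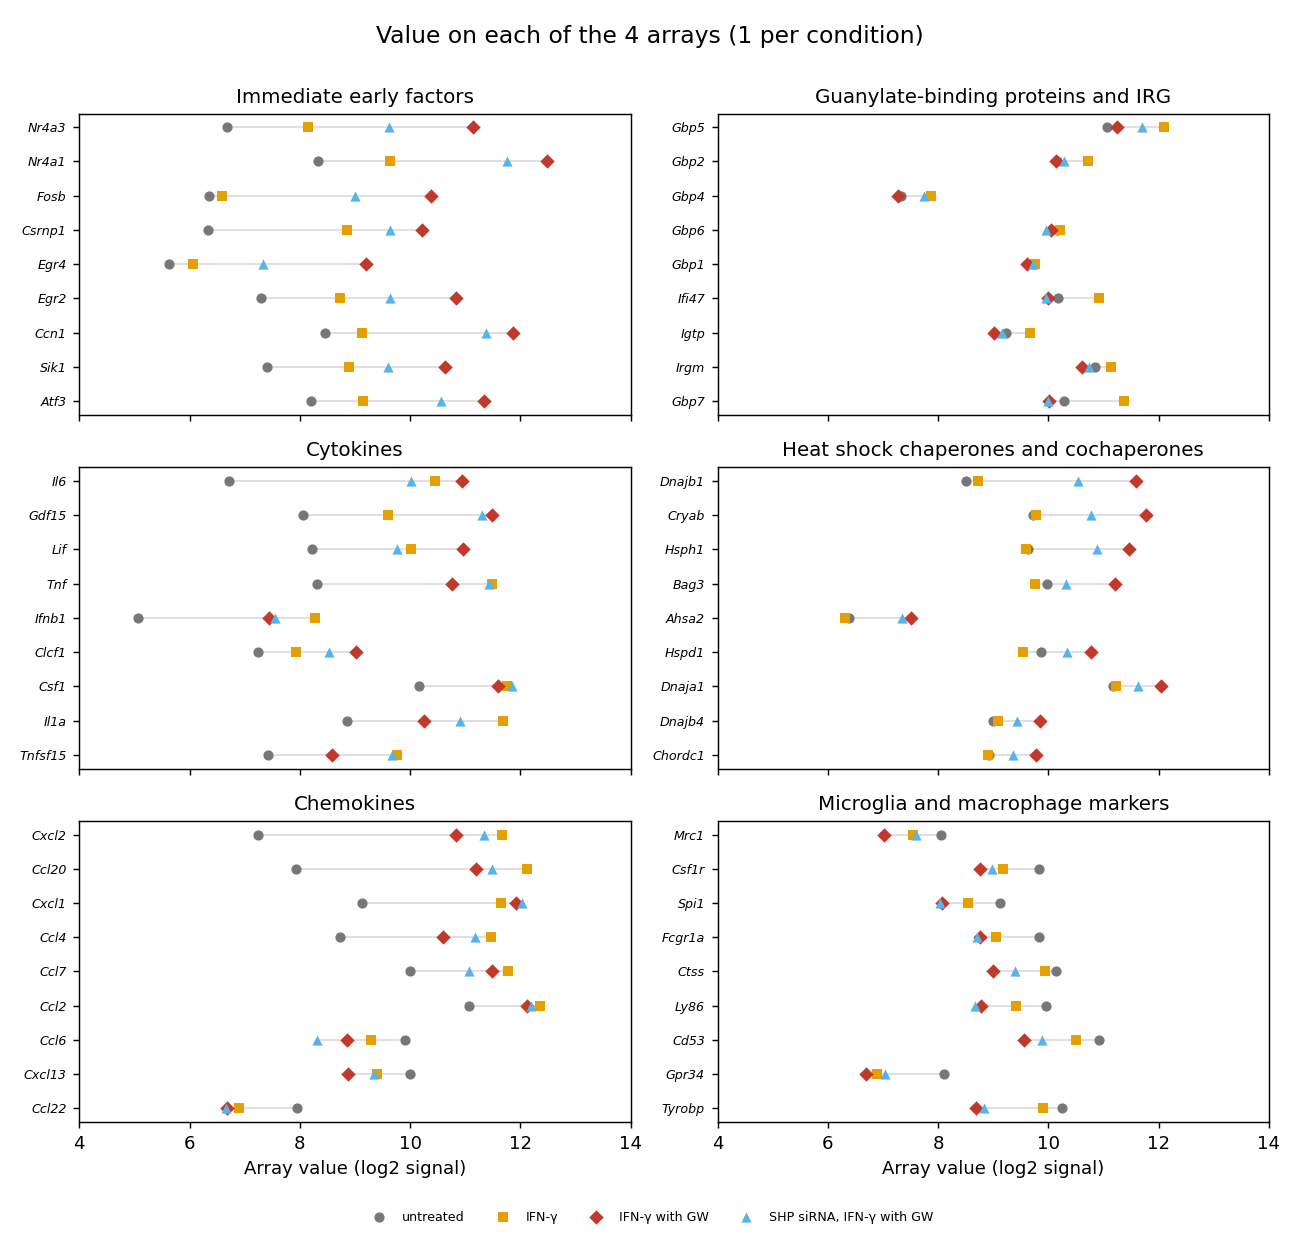
Each row is a gene, each symbol its log2 value on 1 of the 4 arrays, for the 9 members of each of 6 lists that differed most between IFN-γ with GW and untreated. IFN-γ with GW is highest in every row of the immediate early panel, and the untreated array in every row of the microglia panel. The rows were chosen by that difference, so this partly follows from the choice. Over the whole lists it held for 36 of 45 and 33 of 37 genes, beside 21.6% and 39.2% of all genes. In the panel of guanylate-binding proteins, which shows the whole list, IFN-γ alone is highest in every row.

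Genes that feed back on MAP kinase and G protein signals formed the next group. Of 34 compared, 19 were at least 2-fold higher and none as much lower, 31 were above 0, and the median was 1.18. IFN-γ alone had 9 higher, 2 lower and a median of 0.47, and SHP siRNA with IFN-γ and GW had 11 higher, 1 lower and a median of 0.85. Dusp1, the phosphatase that switches off p38 and JNK, read 8.46 on the untreated array, 10.67 with IFN-γ, 12.51 with IFN-γ and GW and 12.04 with SHP siRNA, IFN-γ and GW. That is 16.5-fold higher, and its promoter holds the cyclic AMP response element shown above. Dusp8 was 4.20-fold, Dusp2 3.44-fold, Dusp6 2.63-fold and Dusp5 2.31-fold higher.

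Sprouty proteins inhibit receptor tyrosine kinase signals. Spry4 read 5.87 on the untreated array, 6.37 with IFN-γ, 7.57 with IFN-γ and GW and 6.73 with SHP siRNA, IFN-γ and GW, a difference of 1.71, and Spry1 and Spry2 differed by 1.76 and 1.14. Rnd1, a GTPase without GTP hydrolysis that loosens actin fibres, was 14.9-fold higher. In untreated cells Rnd1 and Spry1 lay below the table median, at 5.78 and 5.59. Rgs16, which shortens G protein signals, was 9.00-fold higher, and Gadd45b and Gadd45g, activators of stress kinases, 6.26 and 6.63-fold. These did not share one pattern over the arrays. Gadd45g read 8.76 untreated, 8.47 with IFN-γ, 11.49 with IFN-γ and GW and 10.56 with SHP siRNA. Gadd45b, in contrast, read 9.11 untreated, 11.15 with IFN-γ, 11.76 with IFN-γ and GW and 11.92 with SHP siRNA. Rasd1, a small GTPase, was at -0.16 net although IFN-γ alone stood -1.65 from untreated.

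Krüppel-like factors were mixed. Of 17 compared, 4 reached 2-fold higher, around a list median of 0.23, and 15 were above 0. Klf4 read 6.53 untreated, 7.23 with IFN-γ, 9.09 with IFN-γ and GW and 7.70 with SHP siRNA and was 5.91-fold higher. Klf2, known in endothelium and T cells, was 4.83-fold, Klf6 5.72-fold and Klf10, which TGF-β induces, 3.54-fold higher.

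Cytokines differed gene by gene. Of 28 compared, 11 were at least 2-fold higher and 1 as much lower, with a median of 0.28. IFN-γ alone had 13 higher, none lower and a median of 0.62, and SHP siRNA with IFN-γ and GW had 11 higher, 1 lower and a median of 0.50. Il6, a pro-inflammatory cytokine of astrocytes and myeloid cells, read 6.72 on the untreated array, 10.45 with IFN-γ, 10.95 with IFN-γ and GW and 10.02 with SHP siRNA, IFN-γ and GW. It ranked just below Nr4a3 in the comparison at 18.7-fold, and its highest value was on the IFN-γ with GW array.

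Lif and Clcf1, both of the interleukin 6 family, were 6.64 and 3.41-fold higher. Gdf15, a stress-induced member of the TGF-β family, read 8.06 untreated, 9.59 with IFN-γ, 11.48 with IFN-γ and GW and 11.30 with SHP siRNA, or 10.7-fold higher. Tnf read 8.31 on the untreated array, 11.49 with IFN-γ, 10.76 with IFN-γ and GW and 11.44 with SHP siRNA, IFN-γ and GW. It was 5.46-fold higher net, and its value lay below those with IFN-γ alone and with SHP siRNA. Il1a read 8.85 untreated, 11.68 with IFN-γ, 10.25 with IFN-γ and GW and 10.90 with SHP siRNA, again lower with IFN-γ and GW than on the other treated arrays, and was 2.65-fold higher net. Ifnb1, the gene of interferon beta, was at 5.07 untreated, below the table median, and at 8.27, 7.45 and 7.55 on the other arrays in the same order.

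Il1b, the secreted form of interleukin 1, stood apart from Il1a. It read 9.20 on the untreated array, 11.12 with IFN-γ, 9.18 with IFN-γ and GW and 10.06 with SHP siRNA, IFN-γ and GW, so that with IFN-γ and GW it differed from untreated by -0.02, a sign that turned under each other scaling. Il18, which caspase 1 matures, was 2.10-fold lower, and Casp1 was 2.30-fold lower. Nlrp3, a sensor that activates caspase 1, read 6.67 untreated, 8.93 with IFN-γ, 7.05 with IFN-γ and GW and 8.04 with SHP siRNA. Il1b, Nlrp3 and the genes Cxcl9, Cxcl10, Cxcl11, Nos2 and Socs1 given below were chosen after their values were seen.

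Among 27 chemokines 6 reached 2-fold higher and 4 reached 2-fold lower, around a median of 0.35. IFN-γ alone had 12 higher and 1 lower, with a median of 0.42, and SHP siRNA with IFN-γ and GW had 10 higher and 3 lower, with a median of 0.22. The neutrophil attractants Cxcl1 and Cxcl2, neighbours on chromosome 14, were among the higher ones. Cxcl2 read 7.24 on the untreated array, 11.66 with IFN-γ, 10.83 with IFN-γ and GW and 11.33 with SHP siRNA, IFN-γ and GW, a net 12.1-fold. Cxcl1 read 9.13 on the untreated array, 11.66 with IFN-γ, 11.92 with IFN-γ and GW and 12.03 with SHP siRNA, IFN-γ and GW, a net 6.90-fold. Cxcl1 was thus about as high on all 3 treated arrays, while Cxcl2 was lowest of the treated arrays with IFN-γ and GW.

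Ccl20, which attracts cells with CCR6, was 9.64-fold higher and Ccl4 3.66-fold. The monocyte attractants Ccl2 and Ccl7 were 2.07 and 2.80-fold higher. The interferon-inducible ligands of CXCR3 were less than 2-fold from their untreated values. Cxcl9 read 7.20 on the untreated array, 9.73 with IFN-γ, 6.87 with IFN-γ and GW and 9.18 with SHP siRNA, IFN-γ and GW. Cxcl10 read 10.78 untreated, 12.43 with IFN-γ, 11.24 with IFN-γ and GW and 11.82 with SHP siRNA. Cxcl11 read 8.69 untreated, 10.69 with IFN-γ, 9.04 with IFN-γ and GW and 9.80 with SHP siRNA. In all 3 the IFN-γ array was highest and the SHP siRNA array second. The 4 lower chemokines were Ccl22 at 2.39-fold, Cxcl13 at 2.17-fold, Ccl6 at 2.07-fold and Ccl12 at 2.02-fold. Ccl12 was above untreated with IFN-γ alone, by 0.61.

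Receptors, adhesion molecules and enzymes of inflammation were few but some were far apart. Ccrl2, an atypical chemerin receptor, was 9.46-fold higher from an untreated value below the table median. Of 8 adhesion genes compared, Icam1, which binds leukocyte integrins, read 10.19 on the untreated array, 12.39 with IFN-γ, 12.01 with IFN-γ and GW and 12.34 with SHP siRNA, IFN-γ and GW, a net 3.55-fold, and Icam4 was 3.68-fold higher. Icam4 read 4.90 untreated, below the table median. Vcam1 read 10.79 untreated, 12.22 with IFN-γ, 11.30 with IFN-γ and GW and 11.86 with SHP siRNA, a net difference of 0.51. Among 31 inflammatory enzymes and acute phase genes 8 were at least 2-fold higher and 2 as much lower, around a median of -0.14 and a mean of 0.44.

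Ptgs2, the inducible cyclooxygenase, read 8.45 on the untreated array, 11.14 with IFN-γ, 12.07 with IFN-γ and GW and 11.60 with SHP siRNA, IFN-γ and GW, a net 12.3-fold. Ptx3, a soluble pattern recognition protein, was 10.4-fold, and Tfpi2, a protease inhibitor, higher by 3.58 on the log2 scale. These 3 were highest on the IFN-γ with GW array. Ch25h, which makes the sterol 25-hydroxycholesterol, and Nos2, the inducible nitric oxide synthase, were highest with IFN-γ alone, and net they differed by 1.29 and 0.89.

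Subunits, inhibitors and feedback genes of NF-κB were mostly higher on every treated array. Of 26 compared, 11 were at least 2-fold higher with IFN-γ and GW, none as much lower, and the median was 0.78. With IFN-γ alone 16 were higher and the median was 1.23, and with SHP siRNA, IFN-γ and GW 13 were higher and the median was 1.03. Of these 26 genes, 15 were highest on the IFN-γ array, 10 on the SHP siRNA array and 1 on the IFN-γ with GW array. Among all genes the shares were 19.5%, 19.7% and 21.6% in that order. Nfkbia, which encodes the inhibitor IκBα, read 10.38 on the untreated array, 12.19 with IFN-γ, 12.46 with IFN-γ and GW and 12.65 with SHP siRNA, IFN-γ and GW, a net 4.22-fold. Rel, Nfkbiz and Birc3 were 4.58, 4.55 and 4.38-fold higher. Furthest below 0 was Tnip3, an inhibitor of NF-κB signalling, at -0.96 net and 0.99 with IFN-γ alone.

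Most genes of the IFN-γ pathway itself were less than 2-fold apart. Of 34 receptor, JAK, STAT, IRF and SOCS genes 3 were at least 2-fold higher, beside 1.65% of all genes. None was as much lower, and the median was 0.07. IFN-γ alone had 6 higher and a median of 0.08, and SHP siRNA with IFN-γ and GW had 5 higher and a median of 0.12. Irf1 read 9.44 on the untreated array, 12.07 with IFN-γ, 11.93 with IFN-γ and GW and 12.27 with SHP siRNA, IFN-γ and GW, a net 5.63-fold, so that all 3 treated arrays lay close together. Socs3, a feedback inhibitor of cytokine receptors, read 8.76 on the untreated array, 9.05 with IFN-γ, 10.82 with IFN-γ and GW and 9.84 with SHP siRNA, IFN-γ and GW, or 4.16-fold higher, and Socs2 was 2.12-fold higher. Socs1, which inhibits JAK kinases, read 6.70 on the untreated array, 8.60 with IFN-γ, 6.73 with IFN-γ and GW and 7.88 with SHP siRNA, IFN-γ and GW, a net difference of 0.03. Irf1 and Socs3 were thus at least 2-fold higher net while Socs1 was not, and the receptor genes Ifngr1 and Ifngr2 were at -0.31 and 0.21.

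Guanylate-binding proteins, together with the immunity-related GTPases, attack intracellular pathogens and are classical IFN-γ targets. They stood close to their untreated values. Of 9 compared none was 2-fold higher or lower, 1 was above 0 and 8 below, and the median was -0.13. With IFN-γ alone 2 were at least 2-fold higher, all 9 were above 0 and the median was 0.53, and with SHP siRNA, IFN-γ and GW no gene was 2-fold higher or lower and the median was -0.09. All 9 had their highest value on the IFN-γ array, beside 19.5% of all genes. Gbp5 read 11.07 on the untreated array, 12.10 with IFN-γ, 11.24 with IFN-γ and GW and 11.70 with SHP siRNA, IFN-γ and GW. Gbp7 was at -0.26 net and 2.14-fold higher with IFN-γ alone, and Ifi47 at -0.17 net and 0.75 with IFN-γ alone. Igtp read 9.24 untreated, 9.66 with IFN-γ, 9.02 with IFN-γ and GW and 9.15 with SHP siRNA. For Irgm the values were 10.85 untreated, 11.13 with IFN-γ, 10.61 with IFN-γ and GW and 10.74 with SHP siRNA. The elements printed in the Gbp5 and Igtp promoters are thus in genes that were not 2-fold apart here.

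Antiviral genes, which type I interferon induces too, were likewise near untreated. Of 36 none was 2-fold higher or lower, 9 were above 0 and 27 below, with a median of -0.14. Among all 11790 genes 7108 were below 0 and the median was -0.08. With IFN-γ alone 1 antiviral gene was at least 2-fold higher, none was as much lower and the median was 0.10. The viral RNA sensor Ifih1 was furthest above, at 0.50, and Trim25 furthest below, at -0.81. Among 30 genes of antigen processing and presentation 1 was at least 2-fold lower, 25 were below 0 and the median was -0.39. That gene was Ctss, a cathepsin that trims the class II invariant chain, at 2.18-fold lower, which is also in the list of microglia markers. The class II genes RT1-Da and RT1-DMb were at -0.94 and -0.86, and Psme2, a proteasome activator subunit, at -0.74. Of the 5 genes above 0, Cd40 and Cd274 were furthest, at 0.43 and 0.20, beside 1.67 and 0.76 with IFN-γ alone. With IFN-γ alone 2 antigen presentation genes were at least 2-fold higher and the median was -0.01. With SHP siRNA, IFN-γ and GW none was 2-fold apart and the median was -0.51.

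**Figure D3:**
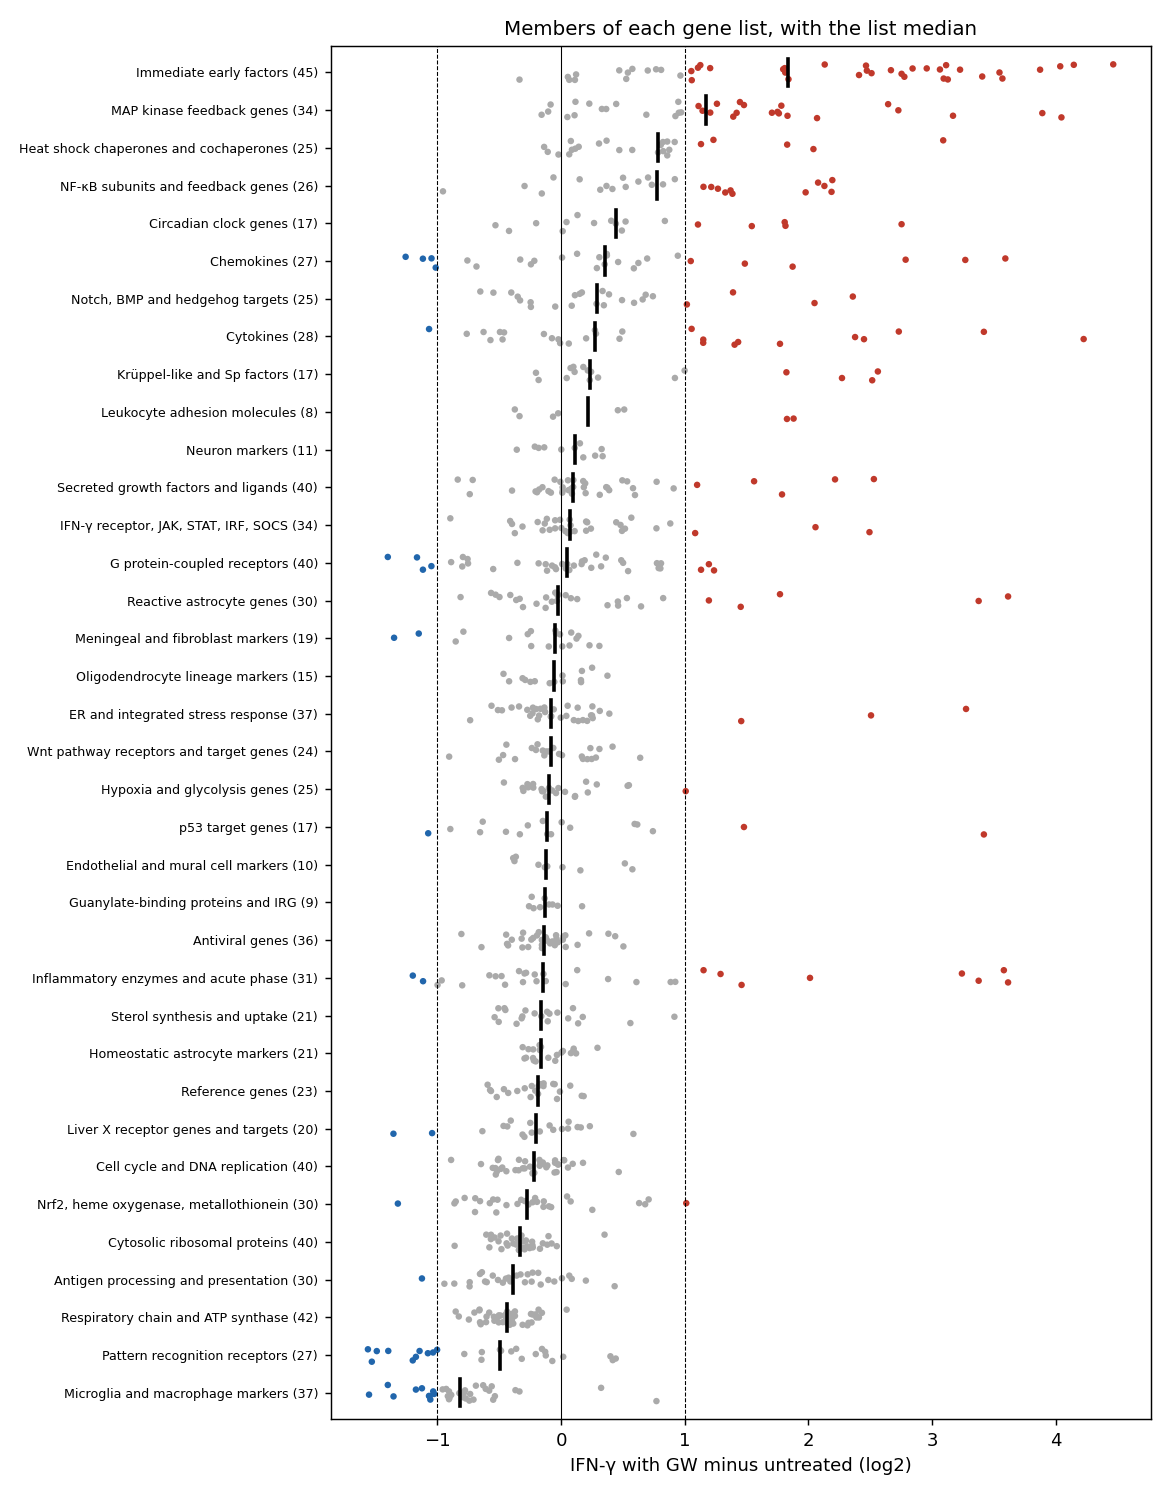
Each point is a gene of one of the 36 lists, by its log2 difference between IFN-γ with GW and untreated, with the list median as a black bar, the number of genes compared in brackets and dashed lines at 2-fold. The list labelled immediate early factors has the highest list median, 1.84, and microglia and macrophage markers the lowest, -0.81.

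Chaperones, which fold proteins and guard against heat and toxic stress, were higher as a group. Of 25 heat shock chaperones and cochaperones 5 were at least 2-fold higher, 22 were above 0 and the median was 0.78. With IFN-γ alone none was 2-fold higher or lower and the median was -0.04, and with SHP siRNA, IFN-γ and GW 3 were higher and the median was 0.22. Dnajb1, a cochaperone of HSP70, read 8.50 on the untreated array, 8.72 with IFN-γ, 11.59 with IFN-γ and GW and 10.53 with SHP siRNA, IFN-γ and GW, a net 8.52-fold. Cryab, a small heat shock protein of astrocytes, read 9.73 on the untreated array, 9.77 with IFN-γ, 11.77 with IFN-γ and GW and 10.77 with SHP siRNA, IFN-γ and GW, a net 4.12-fold. Hsph1, an HSP70 nucleotide exchange factor whose promoter is shown above, read 9.62 untreated, 9.59 with IFN-γ, 11.45 with IFN-γ and GW and 10.87 with SHP siRNA, a net 3.55-fold. In these 3 genes IFN-γ alone lay near the untreated value, at most 0.22 above it, and both GW arrays lay above both, and Bag3 and Ahsa2 were 2.35 and 2.19-fold higher.

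The response of the endoplasmic reticulum was narrower. Of 37 genes of this and the integrated stress response 3 reached 2-fold higher, around a median of -0.08 that became 0.01 after median centring and 0.04 after cyclic loess. They were Ppp1r15a, which restores translation under stress, at 9.68-fold, Chac1, which degrades glutathione, at 5.68-fold, and Cebpb at 2.75-fold. Of 30 antioxidant and metallothionein genes Mt1 was 2-fold higher and Akr1b8 2.50-fold lower, to a value below the table median, around a median of -0.28. Both probes of Mt1 were higher, by 1.01 and 1.53.

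Of 20 liver X receptor genes and targets none was at least 2-fold higher and 2 were as much lower, beside 1.65% and 0.84% of all genes. Their median was -0.20. With IFN-γ alone and with SHP siRNA, IFN-γ and GW none was 2-fold apart, and the medians were -0.08 and -0.06. Thrsp, which acts in lipid synthesis, read 9.89 untreated, 9.26 with IFN-γ, 8.53 with IFN-γ and GW and 9.17 with SHP siRNA, 2.56-fold lower, and Npc1, a lysosomal cholesterol exporter, was 2.06-fold lower. The receptors Nr1h2 and Nr1h3 were at -0.44 and -0.47, and Srebf1, a target of theirs, at 0.58. The bile acid receptor Nr1h4 lay below the table median on all 4 arrays. Nr0b2, the gene commonly abbreviated SHP, read 5.33 on the untreated array, 5.14 with IFN-γ, 5.20 with IFN-γ and GW and 3.45 with SHP siRNA, IFN-γ and GW, below the table median on every array and lowest after SHP siRNA.

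The lower genes were fewer and closer to 2-fold. Of the 99, 19 belonged to the lists of microglia and macrophage markers or of pattern recognition receptors, which is 19.2% of the lower genes beside 0.534% of all genes compared. These lists were drawn with earlier results of these data known, so the shares are descriptions. Of 27 pattern recognition receptors 10 were at least 2-fold lower, none was as much higher, 23 were below 0 and the median was -0.49. IFN-γ alone had 2 higher and 2 lower with a median of -0.16, and SHP siRNA with IFN-γ and GW had 1 higher and 6 lower with a median of -0.61. Cd180, a Toll-like receptor homologue of B cells and myeloid cells, read 9.50 on the untreated array, 8.24 with IFN-γ, 7.94 with IFN-γ and GW and 7.80 with SHP siRNA, IFN-γ and GW, a net 2.95-fold lower. Ly96, which carries lipopolysaccharide to TLR4, read 7.57 on the untreated array, 6.79 with IFN-γ, 6.04 with IFN-γ and GW and 6.20 with SHP siRNA, IFN-γ and GW, or 2.89-fold lower. Tlr1, Tlr5 and Tlr7 were 2.81, 2.05 and 2.00-fold lower, and Tlr5 lay below the table median with IFN-γ and GW, at 5.46. In Cd180, Ly96 and Tlr1 the untreated array was the highest of the 4.

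The C-type lectin receptors Clec4a1, Clec4a3, Clec4a2 and Clec4a, whose genes are consecutive among the compared genes on their chromosome, were each at least 2-fold lower. Clec4a3 read 9.43 on the untreated array, 8.75 with IFN-γ, 8.03 with IFN-γ and GW and 8.47 with SHP siRNA, IFN-γ and GW. Clec4a1 read 10.63 untreated, 10.02 with IFN-γ, 9.43 with IFN-γ and GW and 9.78 with SHP siRNA, so that both were highest untreated and lowest with IFN-γ and GW. Their net folds were 2.64 and 2.30, with Clec4a2 at 2.21 and Clec4a at 2.66. Clec4a2 and Clec4a lay below the table median with IFN-γ and GW, at 5.77 and 5.79. Clec7a, the beta-glucan receptor, was 2.11-fold lower net, with 0.45 for IFN-γ alone.

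The cultures are labelled as astrocytes, and the defining markers were present. Gfap, the intermediate filament of astrocytes, read 12.03 untreated, 12.06 with IFN-γ, 12.11 with IFN-γ and GW and 12.06 with SHP siRNA. The water channel Aqp4 read 11.01 untreated, 11.54 with IFN-γ, 11.31 with IFN-γ and GW and 12.01 with SHP siRNA. Of 21 homeostatic astrocyte markers compared none was 2-fold higher or lower, and the median was -0.16. Gfap and Aqp4 were among the 7 above 0, and 14 were below, beside 7108 of all 11790 genes below. On the IFN-γ with GW array 13 of the 21 had their lowest of the 4 values, as did 3768 of all 11790 genes. Microglia markers were present as well, in spite of the depletion step, and were lower with the treatments. Of 38 measured 37 passed the filter, and of these 10 were at least 2-fold lower and none as much higher, 35 were below 0 and the median was -0.81. IFN-γ alone had 1 higher and 2 lower with a median of -0.36, and SHP siRNA with IFN-γ and GW had 1 higher and 7 lower with a median of -0.64.

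Summed over the microglia markers, the signal on the log2 scale was 15.15 untreated, 14.85 with IFN-γ, 14.33 with IFN-γ and GW and 14.54 with SHP siRNA, IFN-γ and GW. Summed over the astrocyte markers it was 15.63, 15.68, 15.52 and 15.74 on the arrays in that order. Tyrobp, a signalling adaptor of myeloid receptors, read 10.24 on the untreated array, 9.90 with IFN-γ, 8.68 with IFN-γ and GW and 8.83 with SHP siRNA, IFN-γ and GW, a net 2.94-fold lower. Csf1r, the receptor that microglia need to survive, was 2.08-fold lower, and Spi1, the factor PU.1, 2.09-fold. Irf8 and P2ry13 went the other way, at 0.77 and 0.32. Fewer cells of a type and less RNA per cell cannot be told apart in such cultures. Microglia also express many cytokines, chemokines and pattern receptors, and the part of those cells in the results above was not tested. Among markers of other cell types 2 of 19 meningeal and fibroblast genes were at least 2-fold lower, Mgp at 2.55-fold and S100a4 at 2.22-fold, and none of 15 oligodendrocyte, 11 neuron and 10 vascular markers was 2-fold apart. Reactive astrocyte genes had 5 of 30 at least 2-fold higher, S1pr3, Sphk1, Clcf1, Ptx3 and Ptgs2, around a median of -0.03 that turned positive, up to 0.09, under each other scaling. Sphk1 read 5.52 untreated, below the table median.

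The lowest genes also included some outside the lists. Pilrb2l4, of the paired immunoglobulin-like receptor family, had the lowest difference of all and read 6.99 untreated, 5.94 with IFN-γ, 4.89 with IFN-γ and GW and 5.16 with SHP siRNA, below the table median with IFN-γ and GW. Its relative Pilrb2l1 was -1.53 on its brighter probe but 0.10 on the other, so its direction is uncertain. Ms4a6a, Cd37 and Was, a regulator of actin in blood cells, were 3.06, 2.76 and 2.65-fold lower. Cyp1a1, a target of the aryl hydrocarbon receptor, read 8.93 on the untreated array, 8.35 with IFN-γ, 7.20 with IFN-γ and GW and 7.18 with SHP siRNA, IFN-γ and GW, a net 3.33-fold lower.

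Most genes of basic functions lay below 0, and none of those compared here was 2-fold apart. Of 42 genes of the respiratory chain and ATP synthase 41 were below 0, with a median of -0.44 and a range from -0.85, for Ndufa4, to 0.04. Of 40 cytosolic ribosomal proteins 39 were below 0, with a median of -0.33, from -0.86 for Rps27 to 0.35 for Rps12. Of 40 cell cycle genes 34 were below 0, with a median of -0.22, from -0.89 for Rrm2 to 0.47 for Plk4. Common reference genes had 20 of 23 below 0 and a median of -0.19. With IFN-γ alone the respiratory chain median was -0.07 and the ribosomal one -0.12, and with SHP siRNA, IFN-γ and GW they were -0.49 and -0.19. For all genes the net median was -0.08, and 7108 of 11790 were below 0 with IFN-γ and GW. Over all probes the lower and upper quartiles were 4.32 and 7.76 untreated, 4.34 and 7.75 with IFN-γ, and 4.43 and 7.69 with IFN-γ and GW. With SHP siRNA, IFN-γ and GW they were 4.39 and 7.70. The part of this difference in spread in the values of these lists was not tested.

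Promoter motifs could be read for lists in which at least 80% of the compared genes had a promoter in the RefSeq table. The check was void for the genes at least 2-fold higher and lower, of which 79.9% and 77.8% had one, and for the immediate early, cytokine, antiviral and microglia lists, where 77.8%, 75%, 77.8% and 67.6% had one. An NF-κB site was found in 10 of 21 promoters of NF-κB genes and 7 of 23 of chemokines, which is 47.6% and 30.4% beside 4.97% of all. The same site was found in 3 of 9 guanylate-binding and related GTPase promoters, 33.3%, and in 7 of 26 of antigen presentation, 26.9%. A heat shock element was found in 6 of 22 chaperone promoters, 27.3% beside 0.474%. The interferon element was found in 6 of 9 guanylate-binding and related GTPase promoters and in 10 of 26 of antigen presentation, 66.7% and 38.5% beside 3.08%. The lists are small and were drawn from genes known for these factors, so the shares are descriptions.

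**Figure D4:**
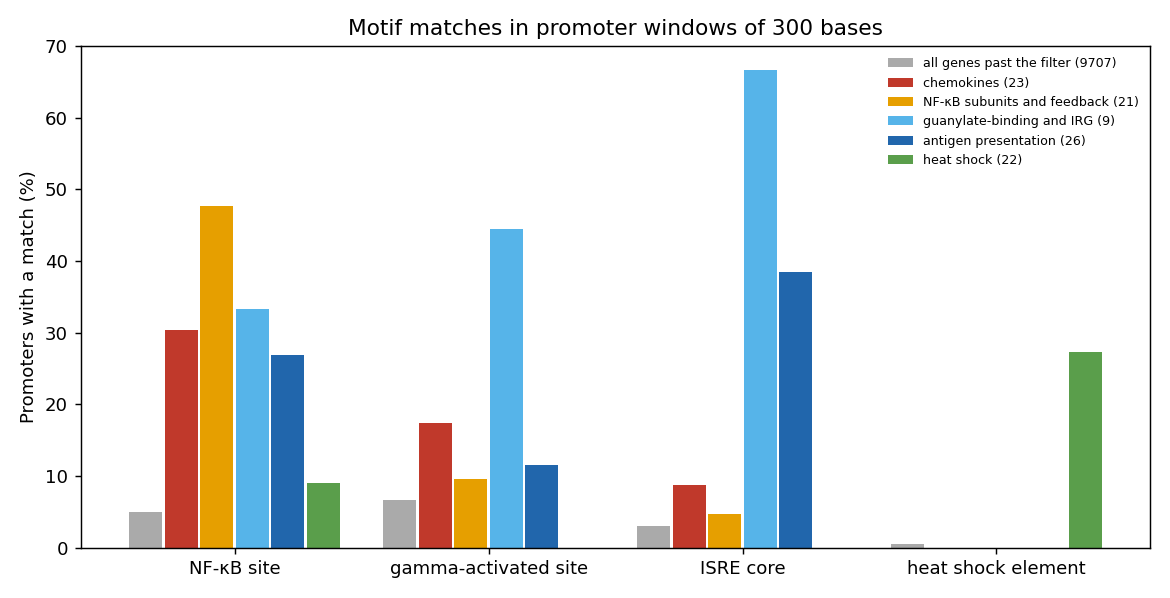
Bars give the percentage of promoters, 250 bases before to 50 after the start, with a match to each of 4 motifs on either strand, for all genes with a promoter and for 5 lists (number of promoters in brackets). The NF-κB site is most frequent in NF-κB genes (47.6%), the interferon element in the GTPases (66.7%) and the heat shock element in chaperones (27.3%).

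The higher genes were also short. Their median gene span was 9.29 kb, that of the lower genes 13.3 kb and that of all compared genes 22.6 kb in the GRCr8 annotation.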

How the data were processed

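Total RNA was labelled by terminal transferase and hybridised to 4 single-colour gene arrays, per the labels' protocols. Values deposited for each probe and array run from 1.14 to 13.4 and were taken as log2 signal for that range. The sources used here do not give the log base, background correction or normalization. Of 29489 probes, 18511 have 1 gene symbol in the platform annotation, 575 several and 10403 none; 18394 were matched by gene identifier to the RefSeq table of GRCr8. Probes beyond the first of a gene numbered 345.

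Differences of log2 values were computed with Python 3.11.15 (pandas 2.3.3), with no test; quantile and cyclic loess normalization used limma 3.58.1. The choice of genes and the 2-fold counts were tested on simulated data with shifts of known size. Normalizations, motifs and neighbours were not tested in this way. Values below the table median may sit at background, and the number of arrays limits precision. The genes named are the 20 highest and 20 lowest differences, list members at least 2-fold apart, the members of greatest difference in each list, the genes nearest 2-fold and markers, besides those said to be chosen after their values were seen. The members and lists were chosen with earlier results of these data known. Alternatives were 3 other scalings, other filters and fold thresholds, the mean of a gene's probes and the mean of a list.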

Additional observations from a re-analysis of the deposited data

How the results depend on the processing

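No paired analysis was possible because each condition has 1 array and no replicate number. None of the 295 genes chosen by the naming rule changed sign under quantile normalization, median centring, cyclic loess or the mean of a gene's probes. Many were chosen for a large difference, and under the 3 scalings none moved by more than 0.1352, so the kept signs say little. In the same order 12, 17, 17 and 1 of them were no longer at least 2-fold apart, and 5, 5, 6 and 0 newly were. Of the 7 genes chosen after their values were seen Il1b changed sign, to 0.0459, 0.0716 and 0.1055 under the 3 other scalings, and the others kept theirs. Median centring left 64 lower genes. A filter that both compared arrays had to pass left 173 higher and 88 lower genes. A threshold of 1.5-fold gave 466 higher and 781 lower genes, and one of 3-fold gave 105 and 4. List medians close to 0 changed sign: reactive astrocyte genes were at 0.0394 after quantile normalization, 0.066 after centring, 0.0916 after loess and 0.0004 with no filter, and their mean was 0.3493. Stress response genes of the endoplasmic reticulum were at 0.0137 after centring and 0.0438 after loess, with a mean of 0.1196. Centring put Wnt genes at 0.0121, meningeal markers at 0.0467 and oligodendrocyte markers at 0.0383, and loess put hypoxia genes at 0.0293 and meningeal markers at 0.0025. With no filter inflammatory enzymes were at 0.0823 and vascular markers at 0.0191, and with a filter on both arrays adhesion molecules were at -0.0237 and G protein-coupled receptors at -0.0163. The mean of inflammatory enzymes was 0.4408, of p53 targets 0.1341, of adhesion molecules 0.4847, of cytokines 0.7233 and of Krüppel-like factors 0.7181. The cause of these changes was not tested. Mt1 and Pilrb2l1 were at 1.2696 and -0.7139 as means of their probes. The all-gene median moved by at most 0.093 under another scaling. With 1 array per condition no setting gives an error, and no background level was measured, so values below the table median may or may not sit at background.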

Other observations

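Several clock genes were higher with IFN-γ and GW. Of 17 compared, 5 were at least 2-fold higher, 14 were above 0 and the median was 0.44, beside no gene 2-fold apart and a median of -0.08 with IFN-γ alone, and 3 higher and a median of 0.48 with SHP siRNA, IFN-γ and GW. Per1, a repressor of the clock, read 8.13 on the untreated array, 8.05 with IFN-γ, 9.94 with IFN-γ and GW and 9.31 with SHP siRNA, IFN-γ and GW, a net 3.52-fold, and Per2 was 2.15-fold higher. Nfil3 and Bhlhe40, repressors of clock output, were 6.75 and 3.50-fold higher, and Ciart 2.91-fold. Per1, Per2, Nfil3 and Bhlhe40 also stand in the list of immediate early genes, so the lists are not independent. The output factors Dbp and Tef were at -0.42 and -0.53.

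Among 25 Notch, BMP and hedgehog targets 4 were at least 2-fold higher and none as much lower, 17 were above 0 and 8 below, and the median was 0.29. IFN-γ alone had none higher, 1 lower and a median of -0.14, and SHP siRNA with IFN-γ and GW had 3 higher, none lower and a median of 0.08. Hes1, a repressor that Notch induces, was 5.13-fold higher, beside a log2 difference of -0.25 with IFN-γ alone, and Nrarp was 4.14-fold higher. Hey2, another Notch target, and Dll1, a Notch ligand, were at -0.65 and -0.55. Id1 and Id3, inhibitors of basic helix-loop-helix factors, were 2.62 and 2.02-fold higher, beside log2 differences of -0.71 and -0.18 with IFN-γ alone. Bmp2, which induces them in many cells, was 4.65-fold higher, beside 5.57-fold with IFN-γ alone, and Bmp4 was at -0.84. A link between Bmp2 and the Id genes was not tested. Hbegf, a ligand of the EGF receptor, was 5.78-fold higher, Angptl4 3.45-fold and Inhba, a subunit of activin, 2.95-fold. Neighbours here are compared protein-coding genes with no other compared one between them, at any distance. Of 191 higher genes placed on chromosomes, 22 lay in 11 pairs of neighbours, 11.5%, among them Ccl2 with Ccl7, Icam1 with Icam4, Rgs1 with Rgs2 and Trib1 with Myc. Of all 11605 placed genes 3.25% lay beside a higher gene. Of 98 lower genes placed, 6 lay beside another lower gene, 6.12%, and of all placed genes 1.65% did.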
